A study of Capra hircus with 20 samples.

Results

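The miR-183 cluster is a set of 3 neighbouring miRNA genes, miR-183, miR-96 and miR-182. miR-1271 is a separate gene whose 5p strand is known in mammals to carry the same seed as miR-96, the seed being the short run near the 5′ end that selects target mRNAs. Members were the rows of the miRNA table whose name, without the species prefix and the arm suffix, is miR-183, miR-96, miR-182 or miR-1271. This gave 5 of 683 rows: miR-183, miR-96, miR-182, miR-1271-5p and miR-1271-3p. The samples are 20 small RNA libraries from hypothalamus of Jining grey goats, with 5 goats at each of days 1, 60, 120 and 180 after birth. The study followed hypothalamic miRNAs through postnatal and sexual development, and all goats were kept under the same conditions. No treatment or genotype separates the groups, and sex is not given in the sources used here. Levels are in RPM, each miRNA's reads per 1000000 miRNA reads in that library, so a level is a share of the miRNA pool.

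miRNAs of the cluster are cut from a shared primary transcript in mammals and are best known from sensory cells. In mice they are abundant in photoreceptors and in the hair cells of the inner ear, and loss of the cluster there leads to retinal degeneration and to defects of hearing and balance. Changes within the seed of miR-96 cause hearing loss in humans and mice. The cluster is also found in the pineal gland of the rat. In the RefSeq annotation of the goat assembly ARS1.2, MIR183, MIR96 and MIR182 follow each other with no other gene between them, flanked by UBE2H and NRF1. MIR1271 lies on another chromosome, inside the gene ARL10. The build the authors used is not given in the sources used here, so only these neighbour relations were read from the annotation.

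Between 4018002 and 8324928 miRNA reads stood behind a library. Replicate 2 of day 1 had the lowest depth and also the lowest median Spearman correlation with the other libraries, 0.891 against 0.916 for the next. Of a marker list of neuronal miRNAs, 6 of 10 were in the table, without miR-124, miR-138, miR-132 and miR-212. These summed to between 94574 and 336366 RPM per library in these hypothalami, of which miR-9-5p held 62610 to 318675 RPM. The 3 miRNAs of the cluster and miR-1271-5p, 4 of the 5 members, reached 1 RPM in at least 5 libraries and were tested among 414 miRNAs.

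The members sat at very different levels. chi-miR-1271-5p was the most abundant, with 562 ± 363 RPM (SD, n = 20) and 78006 reads in all. chi-miR-182 had 120 ± 153 RPM and chi-miR-183 had 116 ± 166 RPM, with 15948 and 14737 reads. chi-miR-96 had 1.39 ± 1.93 RPM and 169 reads over the 20 libraries. Of the 30854 reads of the cluster, miR-182 therefore held 51.7%, miR-183 held 47.8% and miR-96 held 0.548%. Efficiency of adapter ligation differs between miRNA sequences, so these shares are shares of reads. miR-1271-3p, the strand opposite miR-1271-5p in the hairpin, had 22 reads in all and never more than 4 in a library, and it did not pass the filter.

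Of the reads of miR-96 and miR-1271-5p together, miR-1271-5p held 99.8% over all libraries. That they share a seed is background knowledge and was not read from goat sequences here, and the other rows of the table were not searched for it. The share ran from 99.0% in replicate 3 of day 60 to 100% in the 3 libraries with no miR-96 read. The summed level of both was 1045 ± 376 RPM on day 1 (SD, n = 5 in each age), 344 ± 220 RPM on day 60, 397 ± 148 RPM on day 120 and 468 ± 140 RPM on day 180. At each of the 4 ages this sum was almost wholly reads of miR-1271-5p.

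miR-1271-5p was highest at birth. On day 1 its 5 libraries held 1046, 1049, 1641, 642 and 834 RPM. On day 60 they held 366, 207, 235, 190 and 716 RPM. On day 120 they held 406, 144, 441, 463 and 526 RPM, and on day 180 they held 260, 476, 492, 459 and 652 RPM. All libraries of day 120 lay below all those of day 1. How many of the 414 tested miRNAs separate as fully was not counted, and 93 had an unadjusted limma p under 0.05 in that comparison. Replicate 5 of day 60 and replicate 5 of day 180 each exceeded the lowest day-1 library, replicate 4. The means were 1043 ± 375 RPM on day 1 (SD, n = 5 in each age), 343 ± 220 RPM on day 60, 396 ± 148 RPM on day 120 and 468 ± 139 RPM on day 180. The order by mean was thus day 1, day 180, day 120 and day 60, and the last 3 differed from each other by less than the spread between replicates. In whole tissue, fewer cells of a type and less RNA per cell cannot be told apart.

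Between day 60 and day 1, miR-1271-5p fell 3.30-fold on the log2(RPM + 1) scale (log2 fold change -1.72, SE 0.44, 95% interval -2.64 to -0.81; limma adjusted p = 0.0264). It was 1 of 16 miRNAs called in this comparison, 3.86% of the 414 tested, and 1 of 13 called lower (3.14%). Of the 4 members tested it was the only one called. On day 120 against day 1 the difference was -1.45 (SE 0.44, interval -2.36 to -0.54, limma adjusted p = 0.0667), in a comparison that called 3.38% of miRNAs. On day 180 against day 1 it was -1.14 (SE 0.44, interval -2.06 to -0.23, limma adjusted p = 0.144), with 3.38% called. Neither of these passed. In the day-60 comparison marker miRNAs of other tissues were called as well, miR-122 of liver higher (log2 fold change 3.78) and miR-449a-5p of multiciliated cells lower (-2.70), and their part in the fall of miR-1271-5p was not tested. The limma F test over the 4 ages gave miR-1271-5p an adjusted p of 0.0849, with 1.93% of miRNAs called.

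The day-60 call depended on single libraries. It ended without replicate 2 of day 1 (limma adjusted p = 0.0526), when replicate 3 of that age was left out (0.0829), and when replicate 2 (0.0948), 3 (0.0667) or 4 (0.0864) of day 60 was, while the log2 fold change stayed between -2.04 and -1.54 over the 20 fits with 1 library left out. With only the 10 libraries of days 60 and 1 in the fit the same difference had an adjusted p of 0.156. The day-120 difference passed after quantile scaling (adjusted p = 0.0312), after median-of-ratios scaling (0.0433), with DESeq2 (0.0229), and without replicate 4 of day 1 (0.0425) or replicate 5 of day 60 (0.0487); the lowest and highest adjusted p of all alternatives were 0.0229 and 0.17.

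**Figure D1:**
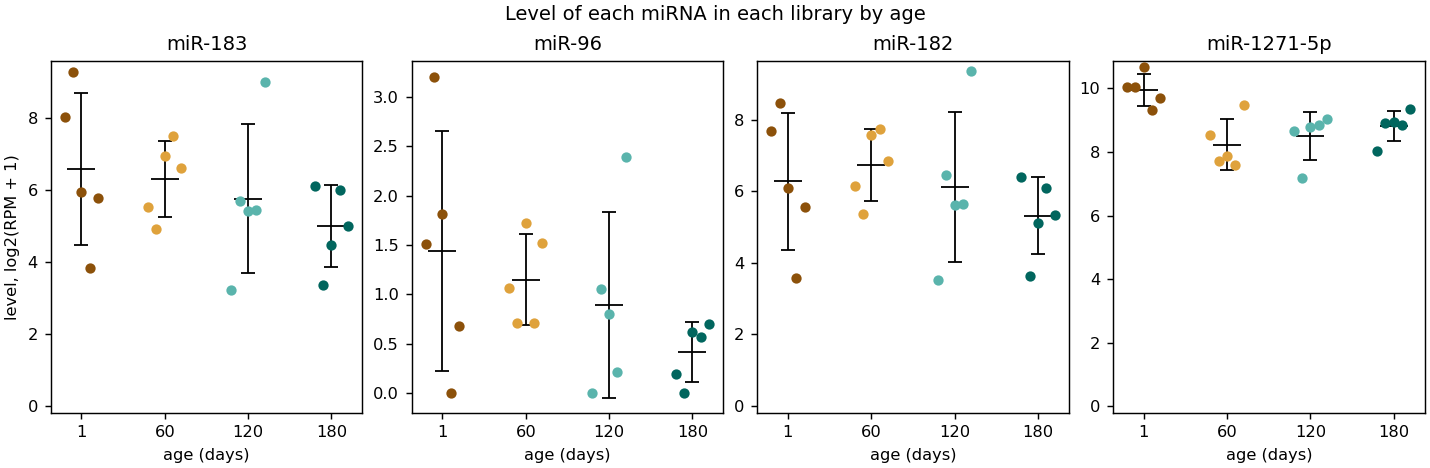
Level of the 4 tested miRNAs in each library, as log2(RPM + 1), against age in days; points are libraries in order of replicate number, bars are the mean and SD of 5 libraries, and each panel has its own vertical scale. miR-1271-5p sits highest on day 1, at a mean of 1043 RPM, while the libraries of the cluster spread widely within every age.

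For miR-183 and miR-182, the within-age SD pooled over the 4 ages was wider than any difference between 2 age means on the log2 scale. It was 1.67 for miR-183, whose largest difference was -1.59, and 1.60 for miR-182, whose largest was -1.42. The SD of each single age was not compared in this way. miR-183 held 258, 619, 60.3, 13.3 and 54.0 RPM in the 5 libraries of day 1. On day 60 it held 44.9, 28.9, 123, 180 and 95.5 RPM. On day 120 it held 8.31, 50.9, 41.3, 42.1 and 513 RPM, and on day 180 it held 68.1, 9.31, 20.9, 62.5 and 31.1 RPM. Replicate 2 of day 1 and replicate 5 of day 120 stood far above the rest, and the 4 ages overlapped. The highest library of an age exceeded the lowest 46.6-fold on day 1, 6.21-fold on day 60, 61.7-fold on day 120 and 7.32-fold on day 180.

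miR-182, which in mammals differs from miR-96 by little in its seed, showed the same pattern. It held 204, 357, 67.9, 10.8 and 46.2 RPM on day 1 and 69.5, 40.4, 190, 214 and 114 RPM on day 60. It held 10.5, 87.1, 48.5, 49.1 and 655 RPM on day 120 and 83.2, 11.5, 33.8, 67.6 and 39.1 RPM on day 180. At each age the libraries highest and lowest in miR-183 were also those highest and lowest in miR-182, and again the ages overlapped. Within ages the SD of log2(RPM + 1) was 1.60 for miR-182 and 1.67 for miR-183, which rank 7 and 6 from the highest among 414 miRNAs, whose median was 0.82. That of miR-1271-5p was 0.65, at rank 318. After median-of-ratios scaling the ranks were 7, 5 and 262.

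miR-96 was close to the limit of detection. On day 1 it had 14, 33, 18, 0 and 5 reads, on day 60 it had 7, 4, 10, 4 and 12 reads, on day 120 it had 0, 9, 5, 1 and 34 reads, and on day 180 it had 1, 0, 3, 4 and 5 reads. Replicate 4 of day 1, replicate 1 of day 120 and replicate 2 of day 180 had no read, which allows up to 0.366, 0.367 and 0.430 RPM (3 reads). In 6 of 20 libraries it had 3 reads or fewer. These limits cover counting error only, since PCR copies of a molecule are not independent.

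No member of the cluster passed in any of the 6 comparisons between ages or in the F test. Against day 1, miR-183 had a log2 fold change of -0.28 on day 60, -0.82 on day 120 and -1.59 on day 180 (SE 0.90 each), with limma adjusted p of 0.9, 0.673 and 0.324, and its day-120 value turned to 0.012 with edgeR and TMM. miR-182 had 0.46, -0.16 and -0.96 (SE 0.87 each; limma adjusted p = 0.798, 0.954 and 0.54), and its day-120 value turned to 0.85 with edgeR and TMM. miR-96 had -0.30, -0.55 and -1.03 (SE 0.48 each, limma adjusted p = 0.764, 0.556 and 0.215). Its level was under 1 RPM in 12 of 20 libraries, so the 1 RPM added before logs shrinks its fold changes and intervals. They are not comparable in size with those of miR-183 and miR-182. For day 180 against day 1, edgeR with TMM gave miR-96 -2.16 and DESeq2 gave -2.23, neither called. The 95% intervals of day 180 against day 1 were -3.45 to 0.28 for miR-183, -2.75 to 0.83 for miR-182 and -2.02 to -0.04 for miR-96, so the data do not set a narrow limit on a change of any of them. miR-96 reached an unadjusted p of 0.0426 there, as did 20.8% of all miRNAs at a threshold of 0.05. Over all alternatives the log2 fold change of day 180 against day 1 ran from -2.77 to -0.42 for miR-96 (adjusted p from 0.0687 to 0.542) and from -2.39 to -0.91 for miR-183 (adjusted p from 0.102 to 0.628). The median log2 fold change of all 414 miRNAs in that comparison was -0.25.

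Between the later ages no member was called. On day 120 against day 60 the log2 fold changes were -0.54 for miR-183, -0.25 for miR-96, -0.61 for miR-182 and 0.27 for miR-1271-5p, and on day 180 against day 120 they were -0.77, -0.48, -0.81 and 0.31 in the same order. The sign of miR-183 and miR-182 on day 120 against day 60 turned with edgeR and DESeq2, to 0.44 and 0.40 in the first. On day 180 against day 120 edgeR with TMM gave lower values for the cluster, -1.59 for miR-183, -1.66 for miR-96 and -1.68 for miR-182, none of them called. On day 180 against day 60 they were -1.31, -0.73, -1.42 and 0.58. limma called 0 of 414 miRNAs (0%) in each of these comparisons, with 13, 3 and 20 at an unadjusted p under 0.05. edgeR and DESeq2 also called no member there. The F test gave adjusted p of 0.645 for miR-183, 0.538 for miR-96 and 0.73 for miR-182.

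**Figure D2:**
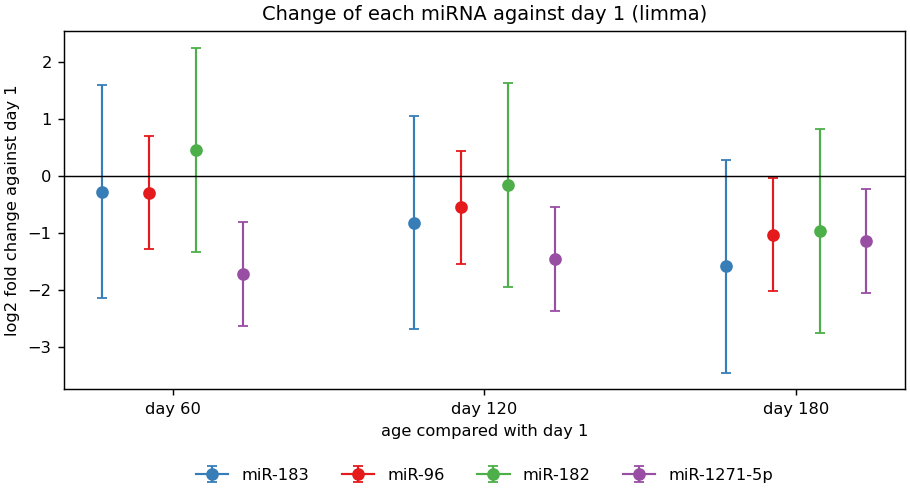
log2 fold change of each tested miRNA on days 60, 120 and 180 against day 1, from limma on log2(RPM + 1); points are estimates and bars are 95% intervals. The intervals are not adjusted for the number of miRNAs tested. That of miR-1271-5p stays below 0 at each age, but only its day-60 difference passed after adjustment. Those of miR-183 and miR-182 span more than 3 log2 units. The values and intervals of miR-96 are shrunk by the 1 RPM added before logs.

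The relation between miR-182 and miR-183 within a library was much tighter than their levels. With the age means removed, log2(RPM + 1) of miR-183 and miR-182 had a Pearson r of 0.99 and a Spearman rho of 0.979 over the 20 libraries (permutation within ages, two-sided p = 1e-05 for both, the smallest that 100000 permutations can give; adjusted over 6 pairs 6e-05). Without replicate 2 of day 1 and replicate 5 of day 120, the 2 libraries farthest from the median of miR-183, r was 0.985. miR-96 followed both partners less closely, with r = 0.823 and rho = 0.693 against miR-182 (permutation p = 0.00057 and 0.00488; adjusted 0.00171 and 0.0146). Without the same 2 libraries r was 0.677 (adjusted permutation p = 0.0367). Against miR-183 it had r = 0.808 and rho = 0.63 (permutation p = 0.00118 and 0.014; adjusted 0.00236 and 0.028). Without those libraries this r was 0.594 (permutation p = 0.0359, adjusted 0.0718), so its call rests on them.

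No relation of miR-1271-5p with the cluster passed the permutation test. Its r was 0.10 with miR-183, 0.08 with miR-182 and 0.33 with its seed partner miR-96. The rho values were -0.02, -0.07 and 0.36 in the same order. The adjusted permutation p of r were 0.748, 0.748 and 0.27 (with miR-96 it was 0.0426 when replicate 2 of day 120 was left out), and those of rho were 0.924, 0.924 and 0.209. Without the 2 libraries farthest from the median of the cluster miRNA, r was -0.05 with miR-183, -0.01 with miR-182 and 0.32 with miR-96. Those libraries were replicate 2 of day 1 and replicate 5 of day 120 for miR-183 and miR-96. For miR-182 they were replicates 1 and 5 of day 120. The labels give no batch within which these relations could be repeated.

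The balance of the cluster's pair of abundant miRNAs differed with age. Reads of miR-182 per read of miR-183 were 0.791, 0.576, 1.13, 0.817 and 0.857 in the libraries of day 1, so that miR-183 was ahead in 4 of 5. They were 1.55, 1.4, 1.55, 1.19 and 1.2 on day 60. They were 1.26, 1.71, 1.17, 1.17 and 1.28 on day 120, and 1.22, 1.23, 1.62, 1.08 and 1.26 on day 180. In all 15 libraries of the later ages miR-182 was ahead. The day-60 and day-120 libraries all lay above all those of day 1, and on day 180 only replicate 4 lay below the highest day-1 library, replicate 3. How many other pairs of miRNAs separate as fully was not counted. Of the levels of the 414 tested miRNAs, 87 on day 60 and 93 on day 120 had an unadjusted limma p under 0.05 against day 1.

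The geometric mean ratio was 1.37 on day 60, against 0.815 on day 1, a 1.68-fold difference (log2 difference 0.75, SE 0.18, higher in 5 of 5 libraries; exact two-sided permutation test p = 0.00794, adjusted over 12 ratio tests 0.0476). On day 120 the ratio was 1.3, against 0.815 on day 1, or 1.6-fold higher (log2 difference 0.68, SE 0.18, exact permutation p = 0.00794, adjusted 0.0476). On day 180 it was 1.27, against 0.815 on day 1 (log2 difference 0.64, SE 0.18, exact permutation p = 0.0159, adjusted 0.0635), which did not pass. The smallest p that 5 libraries against 5 can give is 0.00794. The tests of days 60 and 120 both reached it, and each passed after adjustment only because the other did too. They share the 5 libraries of day 1, so they are not independent of each other. With 1 library left out the smallest is 0.0159, and no difference passed: the adjusted p ran from 0.0635 to 0.0952 on days 60 and 120 and from 0.0635 to 0.127 on day 180, while the differences ran from 0.51 to 0.86 over the 3 ages. The lowest day-1 ratio was that of replicate 2, the library that stood apart, and without it the differences were 0.62, 0.55 and 0.51 on days 60, 120 and 180. A ratio within a library does not depend on how the library was scaled, and at least 65 reads of miR-183 and 80 of miR-182 stood behind each value.

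**Figure D3:**
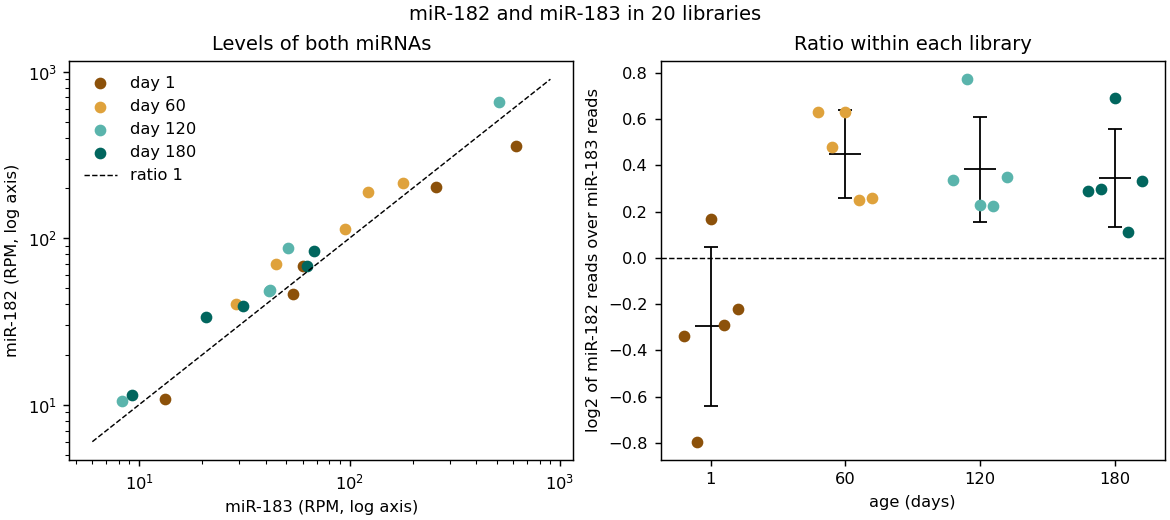
Left, miR-182 against miR-183 in RPM on log axes, 1 point per library coloured by age, with a dashed line where both are equal. Right, log2 of miR-182 reads over miR-183 reads in each library by age in days, with mean and SD of 5 libraries; the 15 later libraries sit above 0 and 4 of the 5 day-1 libraries sit below it.

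The other ratios did not differ between ages beyond their spread. miR-96 over miR-183 differed from day 1 by 0.42 on day 60, -0.13 on day 120 and -0.16 on day 180 in log2 units (SE 0.74, 0.67 and 0.79). miR-96 over miR-182 differed by -0.33, -0.80 and -0.80 (SE 0.67, 0.60 and 0.71). miR-1271-5p over miR-96 differed by -1.88, -0.49 and 0.63 (SE 1.09, 1.53 and 1.19). Over these 9 tests the adjusted p of the exact permutation test ran from 0.381 to 0.857.

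Among the 353 other tested miRNAs with a known name, members of the miR-200 family were the most like the cluster over all 20 libraries. That family marks epithelia, and in mice it is known from the pituitary and from neurons that release gonadotropin-releasing hormone. For miR-182 the 5 highest Pearson r of log2(RPM + 1) over the 20 libraries were those of miR-200b (0.889), miR-200a (0.80), miR-429 (0.778), miR-200c (0.601) and miR-3431-3p (0.593). For miR-183 they were miR-200b (0.881), miR-200a (0.816), miR-429 (0.784), miR-200c (0.659) and miR-323b (0.586). For miR-96 they were miR-200b (0.808), miR-429 (0.80), miR-200a (0.753), miR-665 (0.75) and miR-200c (0.747). Without replicate 2 of day 1 and replicate 5 of day 120, this order changed in part. For miR-96, r was then 0.682 for miR-429, 0.661 for miR-665, 0.631 for miR-200b, 0.591 for miR-200a and 0.492 for miR-200c. For miR-182, miR-3431-3p (0.640) then lay above miR-200c (0.635) and miR-429 (0.631). For miR-183, miR-323b (0.565) then lay above miR-200c (0.533). Other miRNAs were not ranked again without these libraries. The listed r are the highest of many values and are given as a description, and all share library and depth.

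miR-200b averaged 177 RPM and was highest in the same pair of libraries as the cluster. It held 777 RPM in replicate 2 of day 1 and 639 RPM in replicate 5 of day 120, which rank 1 and 2 among the 20, and its median over all libraries was 105 RPM. Without these libraries its r was 0.827 with miR-182 and 0.784 with miR-183. With age means removed it was 0.886 and 0.91 over all 20. The ratio of miR-200b to miR-182 still ran from 0.752 to 5.47, with a within-age SD of 0.77 log2 units, against 0.25 for the ratio of miR-182 to miR-183.

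Markers of other tissues were read in the same libraries. Of the pituitary and epithelium list, 6 of 9 miRNAs were in the table, 5 of them of the miR-200 family, and their sum, set almost wholly by miR-7-5p, ran from 11541 to 117730 RPM on day 1, 39338 to 229562 RPM on day 60, 21246 to 74677 RPM on day 120 and 9608 to 304778 RPM on day 180. The library highest in the cluster on day 1 ranked 11 of 20 in this sum and the one on day 120 ranked 16. Once age means were removed, r with miR-182 was -0.04 for miR-7-5p, 0.886 for miR-200b, 0.80 for miR-200a, 0.778 for miR-429, 0.562 for miR-200c and 0.471 for miR-141. Of the retina and inner ear list, 3 of 6 were in the table, with sums from 1671 to 6985 RPM on day 1, 2318 to 10899 on day 60, 1429 to 5026 on day 120 and 2460 to 4479 on day 180. The same libraries ranked 4 and 10 there. Once age means were removed, r with miR-182 was 0.532 for miR-204-5p, 0.263 for miR-211 and 0.210 for miR-184. The choroid plexus and multiciliated list (7 of 8), which also holds miR-204-5p and miR-211, ranked them 3 and 11. Its other r of this kind were 0.03 for miR-34b-3p, -0.14 for miR-34c-5p, -0.42 for miR-449a-5p, -0.33 for miR-449b-5p and -0.11 for miR-449c. The microglia and immune list (4 of 5) ranked them 1 and 13. In replicate 2 of day 1, miR-150 held 1498 of its 1677 RPM, while miR-146a was at its lowest of the 20 libraries, 1.74 RPM. Their r with miR-182 were 0.33 and -0.60, against 0.52 for miR-155-5p and -0.28 for miR-223-3p. No tested miRNA of the pituitary list (5) or the retina list (3) was called in any comparison. Of the choroid plexus and multiciliated list, 1 of 5 tested was: miR-449a-5p was lower on days 60, 120 and 180 than on day 1 (log2 fold changes -2.70, -2.61 and -3.16, limma adjusted p = 0.0112, 0.015 and 0.00145) and passed the F test. The liver list held 1 miRNA, miR-122, which was higher on day 60 than on day 1 (log2 fold change 3.78, limma adjusted p = 0.011) and passed the F test. None was called of the lists for neurons, oligodendrocytes, microglia and immune cells, erythroid cells, vessels and muscle. List miRNAs with no row in the table were not analysed here, and the part of other tissues in the levels of the cluster was not tested.

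**Figure D4:**
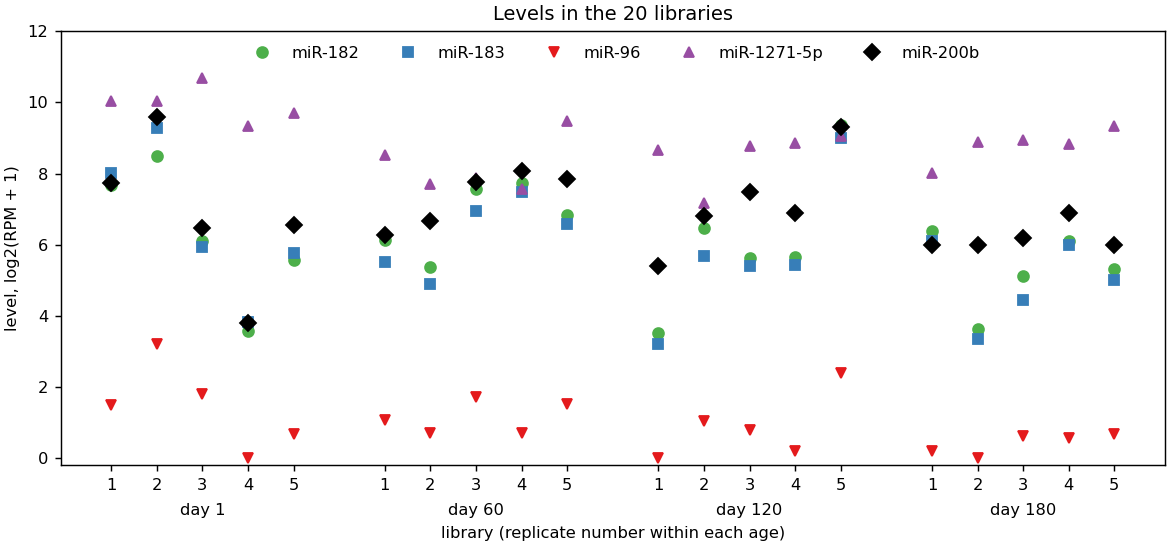
Level of miR-182, miR-183, miR-96, miR-1271-5p and miR-200b, as log2(RPM + 1), in each of the 20 libraries, grouped by age with replicate numbers on the horizontal axis. miR-182, miR-183 and miR-200b are all high in replicate 2 of day 1 and replicate 5 of day 120, and miR-1271-5p stays at 144 RPM or more in every library.

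The miRNAs most like miR-1271-5p were sought among the same 353 others, a set that leaves out the cluster, so no cluster miRNA could be listed. The 5 highest were miR-30a-5p (r = 0.817), miR-542-5p (0.811), miR-188-5p (0.776), miR-99a-3p (0.772) and miR-424-5p (0.753). With age means removed the r were 0.664, 0.657, 0.549, 0.529 and 0.714 in the same order, lower for each of the 5. Of them miR-30a-5p was abundant, at 6046 RPM on average, while miR-542-5p and miR-188-5p averaged 1.95 and 1.37 RPM.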

How the data were processed

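Small RNA libraries were made from total RNA of goat hypothalamus with the NEBNext small RNA kit, per the labels' protocols. Bowtie is named in the submitters' processing notes with no version. The sources used here name no genome build, miRNA catalogue or read counter. The deposited table holds 683 miRNAs in RPM, scaled by the authors. Its header says TPM, but no length scaling was found: low values were whole multiples of 1 step per column, and 100% of values up to 1000 reads came out whole within 0.1 read. Depth was recovered as 1000000 over that step.

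The main test was limma 3.58.1 (R 4.3.3; eBayes with trend, two-sided) on log2(RPM + 1) of the 414 miRNAs at 1 RPM or more in 5 libraries, in 1 fit of 4 age means, with Benjamini-Hochberg adjustment over all 414 at 0.05. Ratios used recovered reads + 0.5 and an exact permutation test (SciPy 1.17.1), and correlations used permutation within ages. edgeR 4.0.16 and DESeq2 1.42.0 were run on recovered reads as alternatives. Scripts were tested on simulated data. No 2 libraries of an age agreed within sampling noise (40 pairs, smallest chi-square per degree of freedom 357).

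All named miRNAs are members of the cluster or miR-1271, the 5 most like each of them, or miRNAs of marker lists. Members and lists were chosen with earlier results of these data known.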

Additional observations from a re-analysis of the deposited data

Results flagged for a closer look

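In 36 groups of 5 libraries (5 miRNAs and 4 ratios at 4 ages), 9 had a library far from the others. Its gap to the nearest library was above 0.71 of the whole range. Among normally distributed values that limit flags about 1 in 20 groups. The values here were RPM and ratios without logs, and the groups share libraries, so 9 of 36 cannot be set against that rate. Replicate 5 of day 120 was far above the other libraries of its age in all 3 miRNAs of the cluster, with 513 RPM of miR-183, 655 RPM of miR-182 and 4.24 RPM of miR-96. Replicate 2 of day 1 was far above its age in miR-1271-3p, at 0.996 RPM, which is 4 reads. Replicate 3 of day 1 had a miR-96 to miR-183 ratio of 0.043, and replicate 2 of day 120 a miR-182 to miR-183 ratio of 1.71. The ratio of miR-1271-5p to miR-96 was far above its age in replicate 4 of day 1 (10537), replicate 1 of day 120 (6641) and replicate 2 of day 180 (6643); miR-96 had 0 reads in each, so these values rest on the 0.5 read added.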

How the results depend on the processing

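Of the 389 values recomputed without leaving out a library, 358 kept their direction and their side of the threshold or their count. miR-1271-5p lay lower on day 60 than on day 1 under each alternative (adjusted p from 0.0038 to 0.156), and miR-182 per miR-183 read was higher at each later age than on day 1. The count of called members became 0 for day 60 against day 1 with only those 2 ages fitted. It became 1 (miR-1271-5p) for day 120 against day 1 with median-of-ratios scaling, quantile scaling or DESeq2, and 1 for the F test with quantile scaling (adjusted p = 0.0448), edgeR with TMM (0.0466), edgeR on library size (0.0364) or DESeq2 (0.0082). With 1 library left out, the counts for day 60 and for day 120 against day 1 and for the F test ran from 0 to 1.

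Uncalled values changed sign, and the cause was not tested. On day 120 against day 60, edgeR with TMM, edgeR on library size and DESeq2 gave 0.44, 0.47 and 0.40 for miR-183 and 0.40, 0.44 and 0.36 for miR-182, and edgeR with TMM gave 0.010 for miR-96. On day 120 against day 1, miR-182 had 0.85, 0.31 and 0.85 with these tools and 0.10 with quantile scaling, and miR-183 had 0.012 with TMM and 0.027 with DESeq2. On day 60 against day 1, miR-182 had -0.13 with edgeR on library size and miR-96 had 0.0080 with a pseudocount of 0.1. With RPM + 1 in place of reads, miR-96 over miR-183 differed by -0.020, 0.27 and 0.56 on days 60, 120 and 180, and miR-1271-5p over miR-96 by -0.12 on day 180.

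With 1 library left out, miR-182 over miR-183 ran from 0.62 to 0.86 on day 60, 0.55 to 0.79 on day 120 and 0.51 to 0.76 on day 180. miR-96 over miR-183 ran from -0.47 to 0.34 on day 120 and -0.53 to 0.30 on day 180. miR-96 over miR-182 ran from -0.67 to 0.12 on day 60, and miR-1271-5p over miR-96 from -1.33 to 0.40 on day 120 and -0.078 to 1.52 on day 180. The r of miR-1271-5p ran from -0.027 to 0.18 with miR-183, 0.23 to 0.44 with miR-96 and -0.061 to 0.16 with miR-182. Log2 fold changes ran from -0.96 to 0.40 for miR-183, -0.66 to 0.14 for miR-96 and -0.22 to 1.01 for miR-182 on day 60 against day 1. On day 120 against day 60 they ran from -1.36 to 0.090 for miR-183 and -1.42 to 0.036 for miR-182. On day 180 against day 120 they ran from -1.40 to 0.047 for miR-183, -1.46 to 0.0012 for miR-182 and -0.026 to 0.50 for miR-1271-5p. On day 120 against day 1 they ran from -0.96 to 0.49 for miR-182.

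Same-numbered libraries of different ages had deviations from the age means that correlated from -0.71 to 0.54 (median 0.07, 30 pairs). Those with other numbers correlated from -0.58 to 0.67 (median -0.05, 120 pairs). The numbers were not taken as pairs, though these ranges cannot exclude a pairing. With the replicate block miR-1271-5p kept its call on day 60 (limma adjusted p = 0.0277) and no other call changed. Depth limited miR-96, at 3 reads or fewer in 6 libraries.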
